A study of Homo sapiens with 15 samples.

Results

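The genes described here were 8 transcription factor genes of presomitic and lateral mesoderm, MSGN1, MESP1, MESP2, HAND1, HAND2, FOXF1, FOXC1 and FOXC2, taken by name from the 23346 gene symbols of a count table and followed from day 0 to day 4 of a differentiation to definitive endoderm, the germ layer of gut, liver and pancreas. The cells were H9, an established human embryonic stem cell line. Cells of days 1 to 4 grew in Advanced RPMI 1640 with activin A, which acts through the receptors Nodal uses. CHIR99021 blocks the kinase GSK3 and so turns on Wnt signalling, and it was present during the first day only. Day 0 cells were undifferentiated and grew in E8 medium, so day and medium cannot be told apart in any comparison with day 0. In comparisons of later days with day 1, day and the withdrawal of CHIR99021 cannot be told apart either. Each day had 3 bulk libraries of polyA-selected RNA, numbered 1, 2 and 4, which makes 15. Whether same-day libraries are from different cultures is not in the labels, and the p-values then measure only the spread between these libraries, which may be technical. All 8 genes passed the filter on low counts, as did 17401 genes in all.

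Cells that leave the primitive streak become mesoderm or endoderm, and mesoderm is sorted by its distance from the midline. Paraxial mesoderm beside the neural tube is laid down as presomitic mesoderm, under Wnt, FGF and T-box factors, and is cut into somites, a step that needs MESP2 in mouse. Lateral plate mesoderm, specified by BMP, gives rise to heart, body wall and limb. MSGN1 is a bHLH factor of presomitic mesoderm. MESP1 and MESP2 are bHLH factors, of the earliest cardiac and cranial mesoderm and of the forming somite. HAND1 and HAND2 are bHLH factors of heart, lateral plate and extraembryonic mesoderm, and FOXF1 is a forkhead factor of lateral and splanchnic mesoderm. The forkhead factors FOXC1 and FOXC2 act in paraxial mesoderm, blood vessels and neural crest derivatives.

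RefSeq promoter windows were found for 5 of the 8 genes, MSGN1, MESP2, HAND1, HAND2 and FOXC1. They are shown for MSGN1, which was high on day 1 only, for MESP2, and for HAND1, which was highest on later days. The windows hold the 250 bases before the annotated start (GRCh38.p14), at chr2:17816210-17816459 on the plus strand for MSGN1, chr15:89776082-89776331 on the plus strand for MESP2 and chr5:154478228-154478477 on the minus strand for HAND1. Capitals mark matches to short motifs searched on both strands.
MSGN1: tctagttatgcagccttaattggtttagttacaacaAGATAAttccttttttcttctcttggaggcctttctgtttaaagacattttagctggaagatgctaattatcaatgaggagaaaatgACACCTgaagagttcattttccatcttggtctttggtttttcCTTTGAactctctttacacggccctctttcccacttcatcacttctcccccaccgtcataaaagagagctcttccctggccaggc
MESP2: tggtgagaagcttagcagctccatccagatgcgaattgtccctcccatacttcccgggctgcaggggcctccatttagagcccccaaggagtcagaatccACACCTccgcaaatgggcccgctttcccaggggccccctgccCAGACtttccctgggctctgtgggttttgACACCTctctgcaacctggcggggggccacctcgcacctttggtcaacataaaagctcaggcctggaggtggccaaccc
HAND1: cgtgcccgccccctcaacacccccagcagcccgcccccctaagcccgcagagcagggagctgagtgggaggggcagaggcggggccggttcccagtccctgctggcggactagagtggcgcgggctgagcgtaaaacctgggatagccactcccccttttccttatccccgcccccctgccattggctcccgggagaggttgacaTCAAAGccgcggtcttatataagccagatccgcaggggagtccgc
AGGTGT is the core of a T-box factor site. The TCF/LEF factors, which carry the Wnt signal, were searched as CTTTGA. A variant of that site with T as its last base, CTTTGT, was searched too. GATA factors were searched as AGATAA. For SMAD proteins, which carry activin and BMP signals, the letters were CAGAC. No marked match overlapped another. MSGN1 had AGATAA at -214 from the start, AGGTGT on the other strand at -127 and CTTTGA at -85. MESP2 had AGGTGT on the other strand at -150 and -79 and CAGAC at -108. HAND1 had CTTTGA on the other strand at -45. In windows not shown, HAND2 had AGATAA on the other strand at -172, and FOXC1 had none of these letters. Of 35116 promoters of 300 bases, 250 before and 50 after the start, AGGTGT was found in 11.4%, CTTTGA in 12.9%, CTTTGT in 16.1%, AGATAA in 10.3% and CAGAC in 45.3%. A match describes letters and not binding.

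Levels are CPM, counts scaled to a common library size by TMM. Total counts ran from 54723184 to 145857940 per library, and by these totals, before TMM scaling, a count of 3 was worth 0.0206 to 0.0548 CPM. Libraries of a day were not alike. The summed level of 6 endoderm markers was 1037 CPM in day 3 replicate 1, against 5574 and 2972 CPM in replicates 2 and 4 of that day, and 886 CPM in day 4 replicate 1, against 4338 and 3075 CPM. Much of that sum was CER1, a secreted Nodal and BMP inhibitor, at 478 CPM in day 3 replicate 1, against 4478 and 1866 CPM, and at 397 CPM in day 4 replicate 1, against 2683 and 1958 CPM. The other 5 markers summed to 559 CPM in day 3 replicate 1, against 1096 and 1106 CPM. FOXA2 was higher in that library, at 252 CPM, than in replicates 2 and 4 of its day, at 116 and 48.2 CPM, and SOX17, at 121 CPM, lay between their 103 and 224 CPM. The summed level of 16 lateral plate and heart genes was highest in these 2 libraries, 1789 CPM in day 3 replicate 1 and 1596 CPM in day 4 replicate 1, with 21.0 to 1292 CPM in the other 13. Replicate 4 of days 2 and 3 also stood apart, with TBX6, a T-box factor of presomitic mesoderm, at 5.29 and 7.91 CPM, against 0.313 and 0.703 CPM in replicates 1 and 2 of day 2 and 3.41 and 0.841 CPM in replicates 1 and 2 of day 3. The summed level of 3 pluripotency genes, POU5F1, NANOG and SOX2, was 256 CPM in replicate 4 of day 2, against 77.1 and 89.9 CPM in replicates 1 and 2, 294 CPM on day 3, against 41.9 and 64.2 CPM, and 190 CPM on day 4, against 35.5 and 49.3 CPM. Several results that rest on these libraries are given with and without them. In bulk RNA, fewer cells of a type and less RNA per cell cannot be told apart.

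MSGN1 had a pulse on day 1. It was at 0, 0 and 0.0571 CPM in the 3 day 0 libraries, at 23.5, 24.2 and 25.6 CPM on day 1, at 0, 0.0753 and 0.0822 CPM on day 2, at 0.0543, 0 and 0.0728 CPM on day 3 and at 0.0393, 0.0399 and 0.0353 CPM on day 4. The day 1 libraries were close together, at 24.4 ± 1.05 CPM (SD, n = 3), and no library of another day came near them. Outside day 1 no library held more than 8 counts of the gene, out of totals of at least 54723184. The day means on the other 4 days were 0.0778% to 0.215% of the day 1 mean.

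MESP1 also stood high on day 1 but did not go down in every library after it. It was at 0.0237, 0.0199 and 0.247 CPM on day 0, at 19.7, 18.4 and 37.2 CPM on day 1, at 2.03, 2.69 and 38.4 CPM on day 2, at 12.4, 1.20 and 35.9 CPM on day 3 and at 2.18, 2.10 and 2.23 CPM on day 4 for replicates 1, 2 and 4. Replicate 4 stayed between 35.9 and 38.4 CPM over days 1 to 3, whereas replicate 2 was at 18.4 CPM on day 1 and under 3 CPM from day 2 on. MESP2 was at 0, 0.0596 and 0.114 CPM on day 0, 2.02, 1.41 and 2.95 CPM on day 1, 1.16, 1.51 and 6.96 CPM on day 2, 3.90, 0.631 and 2.77 CPM on day 3 and 0.550, 0.619 and 0.389 CPM on day 4. The libraries of days 1, 2 and 3 overlapped, and its highest library was again replicate 4 of day 2. The pluripotency sum was also higher in replicate 4 on days 2 and 3, and its part in the MESP1 and MESP2 levels was not tested. MESP1 and MESP2 are neighbours on chromosome 15, and their levels were set against each other per kilobase of the longest annotated transcript. MESP2 made up 13.1%, 10.1% and 10.4% of the pair in the day 1 libraries, 45.7%, 45.1% and 21.0% on day 2, 31.6%, 43.5% and 10.2% on day 3 and 27.0%, 30.2% and 20.4% on day 4. Each day 2 library thus had a larger MESP2 share than each day 1 library; this difference was not tested.

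HAND1 came later, with its highest levels from day 2 on. It was at 1.23, 1.07 and 0.666 CPM on day 0, at 17.4, 14.8 and 8.29 CPM on day 1, at 58.2, 96.6 and 215 CPM on day 2, at 262, 47.1 and 107 CPM on day 3 and at 109, 27.2 and 98.1 CPM on day 4. Every library from day 2 on was above every day 1 library, and every day 1 library above every day 0 library. The top day mean was day 3, at 139 ± 111 CPM (SD, n = 3), but day 2, at 123 ± 81.8 CPM, was within that spread and was the top day in replicates 2 and 4. Without day 3 replicate 1 the top mean of HAND1 was on day 2. HAND2 was low and was carried by 2 libraries, with 8.34 CPM in day 3 replicate 1 and 2.26 CPM in day 4 replicate 1. The other 13 libraries were at 0 to 0.904 CPM, and without replicate 1 of days 3 and 4 its top mean was on day 2. These 2 libraries are the ones with low CER1, low GATA6 and low endoderm sums, while FOXA2 was the lowest of its day in neither. The part of these differences in the HAND2 result was not tested. The antisense partner of HAND2, listed as NBLA00301, had 0.611 and 0.196 CPM in the same 2 libraries and at most 0.0294 CPM elsewhere, and whether the counting used strand is not given in the sources used here.

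FOXF1 had its top mean on day 1 in each of the 3 replicates and stayed detectable. Its levels were 0.0473, 0.278 and 0.0571 CPM on day 0, 14.2, 19.7 and 18.1 CPM on day 1, 2.76, 7.0 and 11.3 CPM on day 2, 6.39, 10.3 and 12.4 CPM on day 3 and 4.69, 8.54 and 8.09 CPM on day 4. Each library of days 2 to 4 was below each day 1 library and above each day 0 library. FOXC1 was at 0.402, 0.437 and 0.362 CPM on day 0, at 33.8, 46.9 and 31.8 CPM on day 1, at 9.26, 7.33 and 16.4 CPM on day 2, at 51.4, 2.46 and 14.9 CPM on day 3 and at 11.3, 1.92 and 2.30 CPM on day 4. Day 1 was its top day in replicates 2 and 4, while in replicate 1 it was day 3, in the library where HAND2 was also highest. FOXC2 had 1.07 CPM in day 3 replicate 4 and at most 0.384 CPM in any other library, and 5 of 15 libraries had no count of it.

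**Figure D1:**
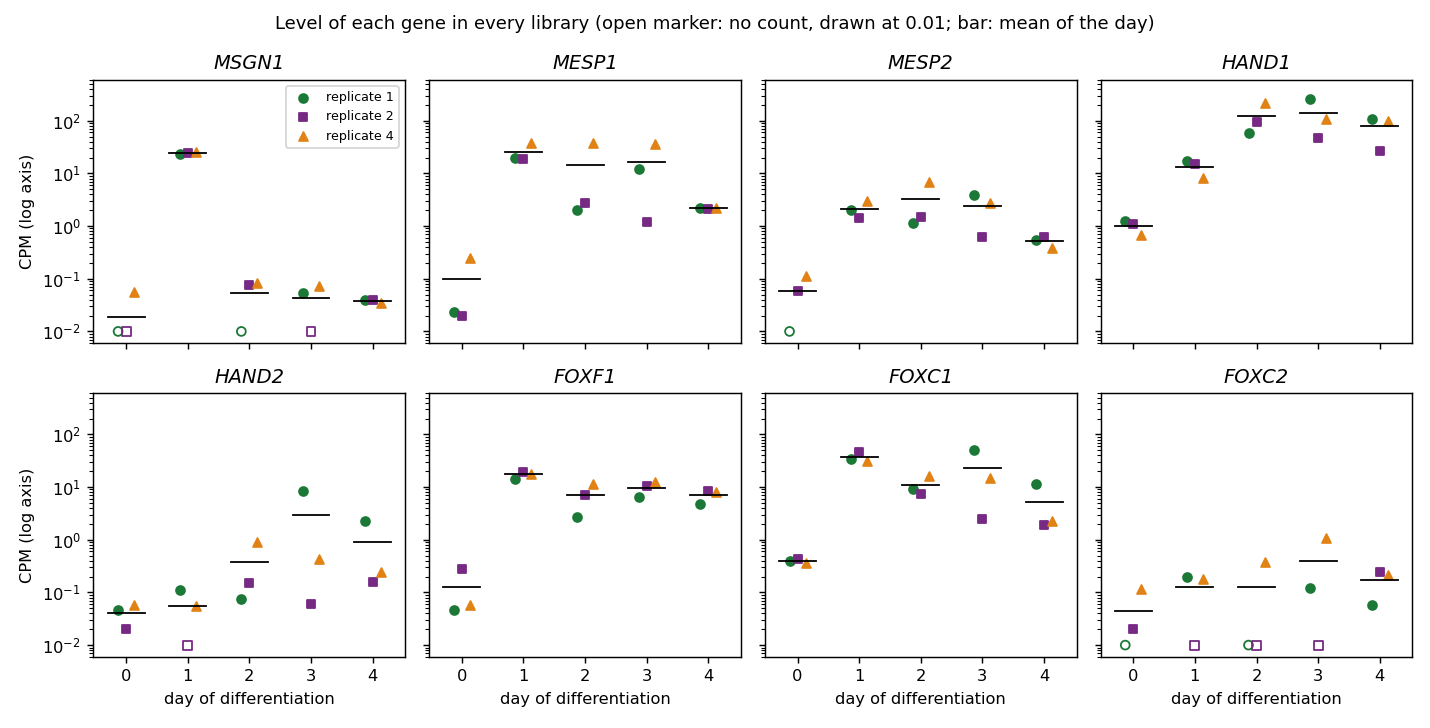
Level of each of the 8 genes in each library, as CPM on a log axis against the day of differentiation; points are libraries, coloured and shaped by replicate number, bars are day means, and open points at the bottom are libraries with no count. MSGN1 is high on day 1 only, at 23.5 to 25.6 CPM, while HAND1 lies at 27.2 to 262 CPM on days 2 to 4.

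Set on a common scale, each day as a percentage of the gene's top day mean, the members named for paraxial and for lateral mesoderm were not cleanly ordered. MSGN1 and MESP1 had their top mean on day 1 and HAND1 and HAND2 on day 3, but the lateral gene FOXF1 had its on day 1 and the segmentation gene MESP2 on day 2. On day 2 HAND1 stood at 89.0% of its top mean, MESP1 at 57.2%, FOXF1 at 40.5% and MSGN1 at 0.215%. Day 2 replicate 4 decided both MESP values. Without it the day 2 mean of MESP1 was 2.36 CPM, or 9.38% of its day 1 mean, and that of MESP2 was 1.33 CPM, which put the top mean of MESP2 on day 3, at 2.43 CPM. By day 4 HAND1 was at 56.3%, FOXF1 at 41.0%, HAND2 at 30.1%, MESP2 at 16.2%, FOXC1 at 13.8% and MESP1 at 8.63% of the top mean. With all libraries, the 3 lateral genes thus retained larger shares on day 4 than the 3 paraxial ones, a difference that was not tested. For HAND2 it did not hold without day 4 replicate 1, where HAND2 was at 6.91%, below MESP2 at 15.7% and MESP1 at 8.60%. HAND1, at 45.2%, and FOXF1, at 48.0%, were still above them without that library. Without day 3 replicate 1 alone, HAND2 was at 100% on day 4. It was at 54.1% without replicate 1 of days 3 and 4. Among all genes tested, 18.4% had their top mean on day 1, 12.5% on day 2 and 17.3% on day 3.

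**Figure D2:**
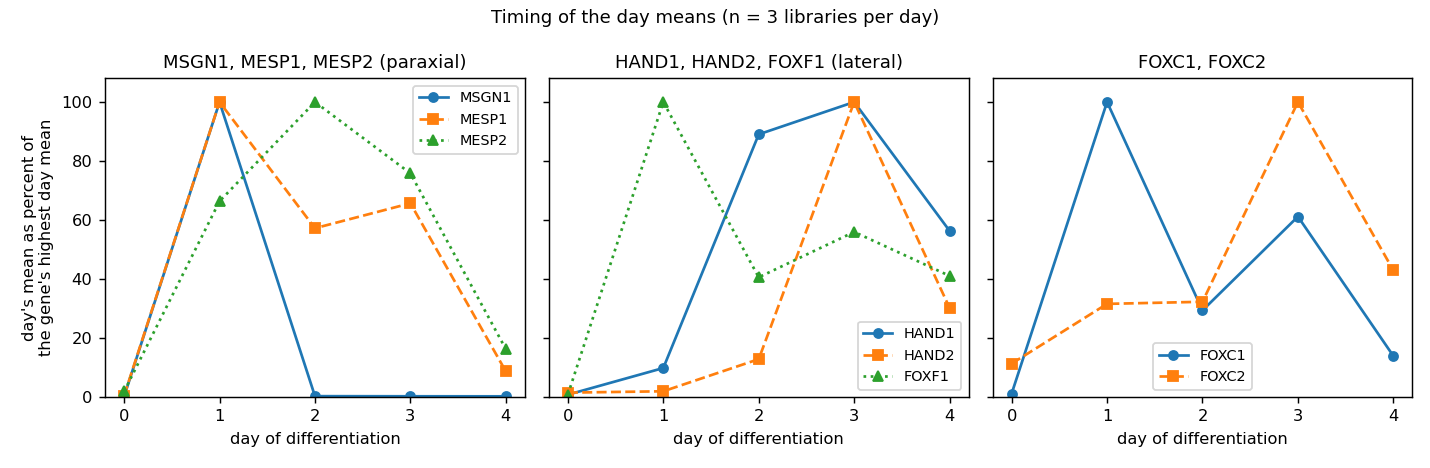
Mean of each day as a percentage of the gene's highest day mean (n = 3 libraries per day, no error drawn; the spread is in the plot of single libraries), for MSGN1, MESP1 and MESP2, for HAND1, HAND2 and FOXF1, and for FOXC1 and FOXC2. MSGN1, MESP1, FOXF1 and FOXC1 peak on day 1, MESP2 on day 2 (on day 3 without day 2 replicate 4) and HAND1, HAND2 and FOXC2 on day 3. Without day 3 replicate 1, HAND1 peaks on day 2 and HAND2 on day 4. FOXC2 peaks on day 4 without day 3 replicate 4.

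Levels of different genes can be set side by side only per length, here as CPM per kilobase of transcript. The length used was 606 bases for MSGN1 and 1614 to 3926 bases for the other members. The RefSeq gene of MSGN1 is longer than that, at chr2:17816460-17817798. Its values per kilobase may thus be too high, and its order with FOXC2 on day 4 may not hold. On day 1 the order was MSGN1 (40.3 ± 1.73), MESP1 (10.6 ± 4.44), FOXC1 (9.55 ± 2.09), HAND1 (7.78 ± 2.71), FOXF1 (4.93 ± 0.800), MESP2 (1.32 ± 0.481), FOXC2 (0.0431 ± 0.0374) and HAND2 (0.0198 ± 0.0200) CPM per kilobase (SD, n = 3). MESP1, FOXC1 and HAND1 overlapped, as did HAND1 and FOXF1, and FOXC2 and HAND2. On day 4 HAND1 led with 44.9 ± 25.5 CPM per kilobase, above FOXF1 (2.02 ± 0.599), FOXC1 (1.32 ± 1.36), MESP1 (0.915 ± 0.0277), MESP2 (0.322 ± 0.0732) and HAND2 (0.320 ± 0.427), and MSGN1 (0.0630 ± 0.00410) and FOXC2 (0.0587 ± 0.0336) came last. The lowest HAND1 library of day 4, at 15.6 CPM per kilobase, was above the highest library of every other member, which was 2.89 for FOXC1. Of the HAND1 and FOXF1 sum per kilobase, HAND1 made up 98.1%, 88.6% and 95.9% in the day 0 libraries, 71.2%, 60.4% and 48.1% on day 1, 97.7%, 96.5% and 97.5% on day 2, 98.8%, 90.3% and 94.6% on day 3 and 97.9%, 86.5% and 96.1% on day 4. Each day 1 library was below each library of the other days.

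The first day, with activin A and CHIR99021, brought up 6 of the 8 genes together. By edgeR's quasi-likelihood test with Benjamini-Hochberg adjustment over all genes, called at an adjusted p under 0.05, 6 members were called higher on day 1 and none lower, where 5.49% of all genes tested were called higher. MSGN1 rose by a log2 fold change of 10.15 (SE 1.12, edgeR adjusted p = 2.65e-05), with 24.4 ± 1.05 CPM on day 1 and 0.019 ± 0.033 CPM on day 0. MESP1 (log2 fold change 7.96, SE 1.48), FOXF1 (7.06, SE 0.739), FOXC1 (6.54, SE 0.996) and MESP2 (5.13, SE 0.996) rose with it. HAND1 had the smallest of the 6 fold changes, at 3.77 (SE 0.688, edgeR adjusted p = 0.00187). HAND2 (0.0551 ± 0.0555 CPM on day 1 and 0.0414 ± 0.0193 CPM on day 0, adjusted p = 0.915) and FOXC2 (0.125 ± 0.109 CPM on day 1 and 0.0447 ± 0.0610 CPM on day 0, adjusted p = 0.680 by edgeR) did not pass. All day 1 libraries were above all day 0 libraries for the 6 called members, as for 15.8% of all genes. The median log2 fold change of the members was 5.84, and that of all genes tested was -0.02. Single day 0 libraries set the size but not the calls. Among day 0 libraries MSGN1 had counts in replicate 4 only, 6 of them, so the size of its change rests on a level near 0. Without that library MSGN1 was at 14.08, MESP1 at 10.11 and MESP2 at 6.05, and FOXF1 was at 8.32 without day 0 replicate 2.

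On the second day, after CHIR99021 was withdrawn, MSGN1 and HAND1 moved in opposite directions. Day and withdrawal cannot be told apart here. MSGN1 fell to 0.0525 ± 0.0456 CPM on day 2, against 24.4 ± 1.05 CPM on day 1 (log2 fold change -8.92, SE 1.05, edgeR adjusted p = 1.11e-04). HAND1 rose to 123 ± 81.8 CPM on day 2, against 13.5 ± 4.70 CPM on day 1 (3.19, SE 0.663, edgeR adjusted p = 0.00702). These were the 2 members called, in a comparison where 4.93% of all genes were called higher and 3.34% lower. Without day 2 replicate 4 the HAND1 value was 2.52 and without day 2 replicate 1 that of MSGN1 was -8.24, both still called. FOXF1 (-1.30, SE 0.563, edgeR adjusted p = 0.181) and FOXC1 (-1.77, SE 0.798, edgeR adjusted p = 0.201) did not pass, although each of their day 2 libraries was below each day 1 library, as for 18.5% of all genes. With the replicate number as a block FOXF1 was called (-1.46, edgeR adjusted p = 0.0336), and FOXC1 was called without replicate 1 of days 3 and 4 (-1.71, edgeR adjusted p = 0.0493). FOXC1 was also called with only the days compared (-1.76, edgeR adjusted p = 0.00901). Same-numbered libraries of days 1 and 2 correlated at r -0.0750 to 0.274, so no clear pairing backs the block. MESP1 stood at 14.4 ± 20.8 CPM on day 2 and 25.1 ± 10.5 CPM on day 1 (-0.81, SE 1.07, edgeR adjusted p = 0.717). Without replicate 4 of days 2 and 3, an alternative chosen after the data were seen, MESP1 was lower on day 2 (-3.42, edgeR adjusted p = 0.0329) and the MESP2 value was -0.68, against 0.59 with all libraries, and was called in neither fit. Leaving out day 2 replicate 4 alone gave the same MESP1 value without a call (-3.42, edgeR adjusted p = 0.0727). The median over the members was -0.41, and over all genes 0.00.

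No member was called between consecutive later days. On day 3 against day 2, 0.948% of all genes were called by edgeR, and no member had an unadjusted p under 0.05. DESeq2 called 5.89% of all genes and no member. The libraries of both days overlapped for all 8 members, and the share of all genes for which they did is not given here. On day 4 against day 3 edgeR called 0 of 17401 genes (0.0%), with 1074 genes at an unadjusted p under 0.05 and 64 (0.368%) called by DESeq2, none of them a member. MESP1 (2.17 ± 0.0657 CPM on day 4 and 16.5 ± 17.7 CPM on day 3), MESP2 (0.519 ± 0.118 CPM on day 4 and 2.43 ± 1.66 CPM on day 3) and FOXC1 (5.19 ± 5.34 CPM on day 4 and 22.9 ± 25.4 CPM on day 3) were the members with an unadjusted p under 0.05, and their edgeR adjusted p-values were 0.728, 0.728 and 0.726. MESP2 was the member whose day 4 libraries were all below its day 3 libraries, as for 4.32% of all genes. These 3 genes were singled out after their values were seen. Without day 3 replicate 1 the FOXC1 log2 fold change was -0.78, against -2.14 with all libraries. That of MESP1 was -1.64 without day 3 replicate 4, against -2.93 with all libraries.

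At the end of the course 6 members were above their undifferentiated level. On day 4 against day 0, HAND1 (log2 fold change 6.30, SE 0.771), FOXF1 (5.77, SE 0.701), MESP1 (4.43, SE 1.29), HAND2 (4.39, SE 1.63), FOXC1 (3.69, SE 0.880) and MESP2 (3.10, SE 0.939) were higher by edgeR, where 18.0% of all genes were. The HAND2 call, at 0.888 ± 1.19 CPM on day 4 and 0.0414 ± 0.0193 CPM on day 0, was close to the threshold (edgeR adjusted p = 0.0480). It was lost without day 4 replicate 1 (log2 fold change 2.31, edgeR adjusted p = 0.262), without any single day 0 library, and without replicate 1 or 4 of day 1 or replicate 2 of day 2. The MESP1 and MESP2 calls were lost without day 0 replicate 1 (adjusted p = 0.0725 and 0.0578 by edgeR) and without day 0 replicate 2 (0.0648 and 0.0583). With only the days compared, the MESP2 call was lost too (3.14, edgeR adjusted p = 0.0581). FOXC1 was at 2.46 without day 4 replicate 1, and without day 0 replicate 4 MESP1 was at 6.61 and MESP2 at 4.04, while FOXF1 was at 7.08 without day 0 replicate 2, all of them called. MSGN1 was at 0.0382 ± 0.00249 CPM on day 4 and 0.019 ± 0.033 CPM on day 0 (edgeR adjusted p = 0.580) and did not pass, nor did FOXC2 (adjusted p = 0.459). The members' median was 4.04, against -0.02 over all genes, in a comparison that shares its day 0 libraries with that of day 1.

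**Figure D3:**
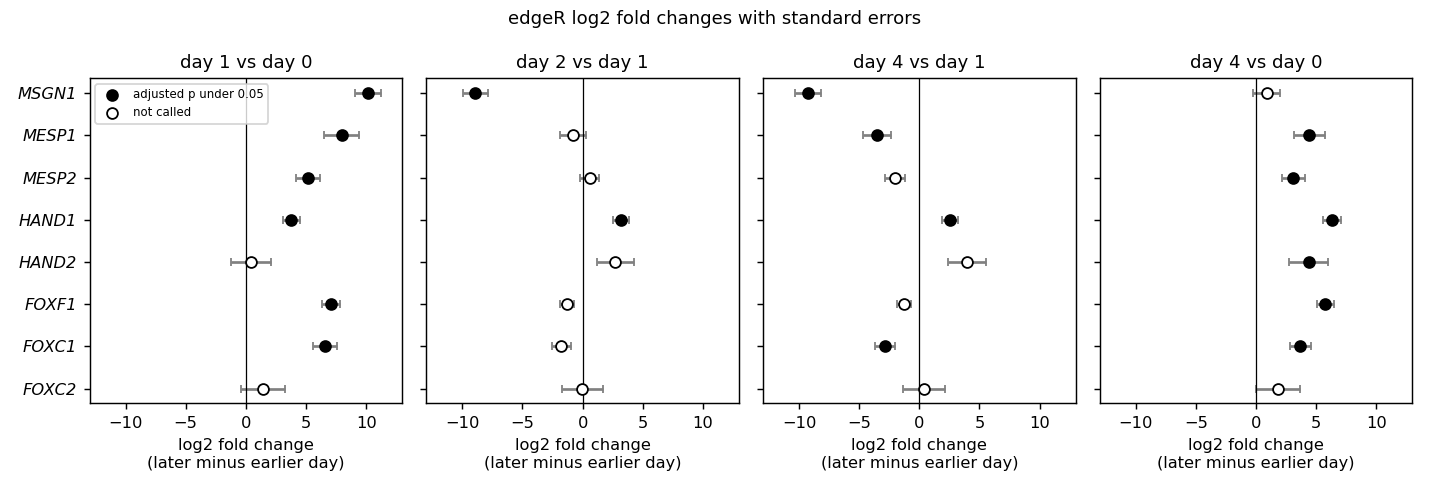
Log2 fold changes by edgeR, later minus earlier day, for the 8 genes in 4 comparisons, with bars of 1 standard error; filled points have an adjusted p under 0.05. MSGN1 lies at 10.15 on day 1 vs day 0 and at -8.92 and -9.26 on days 2 and 4 vs day 1, while HAND1 lies right of 0 in all 4 panels.

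Day 4 against day 1 set the end of the course beside the streak-stage peak. MSGN1 (-9.26, SE 1.07, edgeR adjusted p = 4.11e-05), MESP1 (-3.53, SE 1.17, edgeR adjusted p = 0.0433) and FOXC1 (-2.85, SE 0.831, edgeR adjusted p = 0.0237) were lower on day 4, where 8.93% of all genes were called lower. HAND1 was the member called higher, with 78.0 ± 44.3 CPM on day 4 and 13.5 ± 4.70 CPM on day 1 (2.53, SE 0.645, edgeR adjusted p = 0.0114), where 11.8% of all genes were called higher. MESP2 (-2.03, SE 0.843, edgeR adjusted p = 0.101) and FOXF1 (-1.29, SE 0.563, edgeR adjusted p = 0.121) had all day 4 libraries below all day 1 libraries without passing, as had 22.5% of all genes. HAND2 (3.98, SE 1.60, edgeR adjusted p = 0.0912) had all of them above, as had 21.2% of all genes. Without day 4 replicate 1 the HAND2 value was 1.89 (edgeR adjusted p = 0.424). With the replicate number as a block, HAND2 was also called higher (3.8, edgeR adjusted p = 0.0376) and FOXF1 lower (-1.35, edgeR adjusted p = 0.0271). No pairing backs that block here, since same-numbered libraries of days 1 and 4 correlated at r -0.205 to 0.0463. MESP2 was called lower with only the days compared (edgeR adjusted p = 0.0138) and by DESeq2 (adjusted p = 0.0380), and HAND2 higher in both of these (0.0464 by edgeR and 0.0137 by DESeq2). FOXF1 was lower with only the days compared too (edgeR adjusted p = 0.0226). FOXC1 was at -4.09 without day 4 replicate 1. The HAND1 call was lost without day 1 replicate 4 (edgeR adjusted p = 0.0536), and the FOXC1 call without day 1 replicate 2, day 4 replicate 2 or day 4 replicate 4 (edgeR adjusted p = 0.0669 to 0.0949). The MESP1 call was lost in 9 of the 15 fits that left out 1 library, among them each of days 1 and 4, with an edgeR adjusted p of up to 0.134, and when replicate 1 of days 3 and 4 was left out (0.103). Over all 5 days jointly, 7 of the 8 members changed by edgeR, all but FOXC2 (adjusted p = 0.638), beside 37.3% of all genes, and HAND2 no longer did without day 3 replicate 1 (edgeR adjusted p = 0.0602).

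Other genes of the paraxial programme, in a list of 18, had 8 genes above their day 0 level on day 1 and 1 below it, with a median log2 fold change of 1.87. Over all genes tested the medians of the comparisons lay between -0.02 and 0.01. The signals WNT3A (7.62) and FGF8 (5.97), the Wnt agonist RSPO3 (7.83) and HES7, a repressor of the segmentation clock (5.64), were the largest. On day 2 against day 1, 6 of the 18 were lower and 2 higher (median -1.62). WNT3A (-5.56), HES7 (-4.69) and RSPO3 (-4.57) fell, as MSGN1 did. The 2 that rose were RIPPLY1 (5.87), a somite-boundary repressor, and CYP26A1 (4.52), which breaks down retinoic acid. TBX6 was at 6.07 ± 1.59 CPM on day 1 and 0.277 ± 0.213 CPM on day 0 (4.45, SE 1.12, edgeR adjusted p = 0.0172). Besides RIPPLY1, 6 genes of formed or forming somites were looked at. MEOX1, MEOX2, PAX3, RIPPLY2 and UNCX had their highest day means at 0.240, 0.427, 0.515, 0.352 and 0.191 CPM, those of MEOX2 and RIPPLY2 on day 0. The sixth, TCF15, averaged 2.02, 1.29, 0.397, 0.260 and 0.808 CPM from day 0 to day 4. RIPPLY1 went the other way, with averages of 0.0320, 0.0496, 2.95, 8.04 and 4.05 CPM from day 0 to day 4. UNCX, which had no read in the day 1 and day 2 libraries, was called higher on day 4 than on day 1, at 0.191 ± 0.0623 CPM on day 4. In that comparison 3 of the 18 were higher and 3 lower (median -0.67), CYP26A1 (5.15) and RIPPLY1 (6.33) again among the higher and WNT3A (-6.91) among the lower. Against day 0, 6 were higher and 2 lower on day 4 (median 2.02). Single libraries moved some of these counts. On day 1 against day 0 the 8 higher became 5 without day 0 replicate 1 or 2, and the 1 lower became 0 in 9 of the 15 fits that left out 1 library, with each day 1 library among them. The 3 lower on day 4 against day 1 became 1 without replicate 2 or 4 of day 1 or of day 4, and 5 with the replicate number as a block. The 2 lower on day 4 against day 0 became 4 without day 4 replicate 1.

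The list of 16 lateral plate and heart genes, of which 14 could be tested, had 10 called higher on day 1 against day 0 and none lower (median 4.48). BMP-responsive genes were among the largest, MSX1 (8.60) and MSX2 (5.53), with TBX3 (5.94) and the cardiac factor GATA4 (5.35). On day 2 against day 1, 3 were higher and 1 lower (median 0.00). TBX20 (3.29), BMP4 (1.63) and GATA4 (1.41) rose, as HAND1 did, and MSX1 (-5.07) fell. On day 4 against day 1, 4 were higher and 1 lower (median 1.08), GATA5 (3.77), TBX20 (3.37) and GATA4 (2.44) among the higher and MSX1 (-3.0) the lower. Against day 0, 12 were higher and 0 lower on day 4 (median 5.28). The 3 higher on day 2 against day 1 became 1 without day 1 replicate 1, day 1 replicate 4 or day 2 replicate 2, and the 1 lower became 0 without replicate 1 or 2 of day 2. On day 4 against day 1 the 4 higher became 2 without replicate 1 or 4 of day 1, and the 1 lower became 0 in 9 of 15 such fits, among them those without any 1 of the day 1 libraries. The 10 of the first day ranged from 7 to 11. Several of these genes, GATA4 and GATA5 among them, are also used by endoderm. In the endoderm list itself, 3 of 6 markers rose and 1 fell on the first day, 4 were higher on day 2 than on day 1 and all 6 were higher on day 4 than on day 0. The 1 that fell was not called without day 0 replicate 1 or day 1 replicate 4. Of 7 streak genes, all were higher on day 1 than on day 0 and 4 were lower on day 2 than on day 1. Of 8 genes of blood and endothelium, 3 rose and 1 fell on the first day, and of 5 tested genes of intermediate mesoderm, 3 rose.

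The genes whose pattern was most like that of a member were found by Pearson's r of log2 CPM across the 15 libraries among 14373 genes, and are given as a description, since the libraries share days, depth and replicate number. MSGN1 was most like WNT3A (r = 0.977), WNT5B (0.970) and HOXA3 (0.965), which shared its day 1 pulse: WNT3A averaged 0.0272, 5.66, 0.123, 0.0828 and 0.0448 CPM and WNT5B 3.04, 217, 5.99, 8.57 and 6.78 CPM from day 0 to day 4. HAND1 was most like FMOD (0.983), which encodes a matrix proteoglycan, BMP4 (0.976), the lateral plate signal, and HOXB5 (0.962). BMP4 averaged 4.95, 47.6, 147, 154 and 127 CPM from day 0 to day 4. MESP1 was most like the cytokine receptor gene CNTFR (0.975), PHOSPHO1 (0.955) and ITGB2 (0.945), and CNTFR too was high in replicate 4 of days 2 and 3, at 48.4 and 74.7 CPM, against 10.3 and 10.5 CPM in replicates 1 and 2 of day 2. FOXF1 was most like NOTUM (0.964), MYOM1 (0.963) and H2AFY2 (0.962), and FOXC1 most like GRAP2 (0.959), CDH11 (0.957) and RNF24 (0.952). HAND2 had lower values, with GATA5 (0.891), SLIT1 (0.891) and CCDC63 (0.853). The list for FOXC2, led by MLST8 (0.940), rests on a gene with at most 88 reads in a library.

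**Figure D4:**
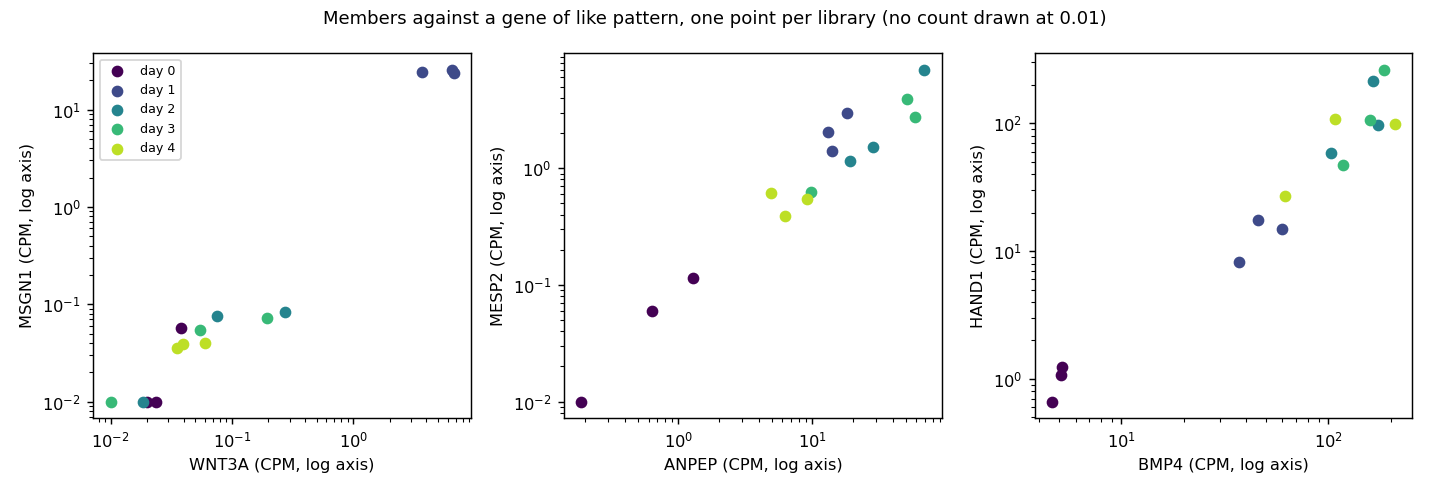
MSGN1 against WNT3A, MESP2 against ANPEP and HAND1 against BMP4, in CPM on log axes, a point per library coloured by day, with libraries without a count at 0.01. The 3 day 1 libraries stand alone at the top right for MSGN1, whereas for HAND1 the day 0 libraries are at the bottom left and those of days 2 to 4 at the top.

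For MESP2 the most similar gene was ANPEP (r = 0.973), an aminopeptidase gene that follows MESP2 directly among protein-coding genes of chromosome 15 in RefSeq, and the next was MESP1 (0.944), on its other side. ANPEP was at 0.189, 0.636 and 1.29 CPM on day 0, 13.2, 14 and 18.2 CPM on day 1, 19.1, 28.5 and 68.9 CPM on day 2, 50.8, 9.79 and 58.3 CPM on day 3 and 9.19, 4.93 and 6.22 CPM on day 4. Its highest library was replicate 4 of day 2 and its lowest of day 3 was replicate 2, both as for MESP2. WDR93, on the far side of MESP1, was at most 1.09 CPM. Other neighbours had other courses. FOXQ1 and FOXF2 lie beside FOXC1 on chromosome 6: FOXQ1 was at 2.02, 38.2 and 34.2 CPM on day 4, when FOXC1 was at 11.3, 1.92 and 2.30 CPM, and FOXF2 was at most 0.565 CPM. FOXC2 and FOXL1 lie beside FOXF1 on chromosome 16, and FOXL1 was at most 0.671 CPM. Among the members, MESP1 and FOXC1 had r = 0.904, HAND1 and HAND2 0.693, FOXC1 and FOXC2 0.244, and MSGN1 and HAND1 -0.07.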

How the data were processed

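Per the labels' protocols, RNA was extracted with Trizol and a column kit, and polyA-selected directional libraries prepared. TopHat2 2.0.14 and the build hg19 are named in the submitters' processing notes; how reads were counted, on which annotation and with or without strand, is not given in the sources used here. The authors deposited raw counts per gene symbol, and columns were matched to samples by title. Of 52 repeated entries among 23398, 44 identical ones were dropped and 8 summed. Every deposited value is even, which would follow if the 2 mates of a pair each counted.

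The counts were tested in R 4.3.3 with limma 3.58.1 and edgeR 4.0.16 (quasi-likelihood F-test, TMM, filterByExpr by day), with the 15 libraries fitted together; adjusted p under 0.05 was called. Standard errors are approximate, the size of the log2 fold change over the root of F. The script was tested on simulated data. DESeq2 1.42.0 was an alternative. Pearson's r used log2 CPM with a prior count of 2 and genes that averaged 1 CPM or more on some day. Transcript lengths came from GENCODE on GRCh38, not the authors' build, and promoters from RefSeq. Named were all 8 members, up to 4 called genes per list and comparison with the largest change, of which not all are printed, the 3 genes most like each member and their neighbours. Members and lists were chosen with earlier results of these data known. Floors of 3 counts cover counting error only.

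Same-numbered libraries of days 2 and 3 and of days 3 and 4 deviated together (r 0.272 to 0.619 and 0.221 to 0.625), so the replicate block is given for these; it changed no member's call there. No label gives a batch or date.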

Additional observations from a re-analysis of the deposited data

How the results depend on the processing

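Of 1183 log2 fold changes of members recomputed under alternatives, 1097 kept their direction and side of the threshold, 27 lost and 11 gained a call and 48 turned in sign; all that turned were values without a call. The 6 calls of day 1 against day 0 held in every alternative. The count of members lower on day 2 than on day 1 was 1, and 2 with the replicate block, without replicate 1 of days 3 and 4, without replicate 4 of days 2 and 3, and with only the days compared. On day 4 against day 0 the count higher ran from 3 to 6 over fits that left out 1 library. On day 4 against day 1 the count higher was 1, and 2 with DESeq2, the replicate block or only the days compared, with a leave-one-out range of 0 to 1; the count lower was 3, and 4 with DESeq2 or the replicate block, 5 with only the days compared and 1 to 3 leaving out 1 library. The cause was not tested. In comparisons other than days 3 and 2 and days 4 and 3 the numbers do not pair the samples: same-numbered libraries correlated at -0.205 to 0.356, and 5 of 12 pairs correlated best with their own number.

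Signs turned as follows. With the replicate block, HAND2 was -0.058 on day 1 vs day 0, HAND1 -0.071 on day 3 vs day 2 and FOXC2 0.55 on day 4 vs day 3. Without replicate 1 of days 3 and 4, the day 3 vs day 2 values were -0.67 for HAND1, -0.56 for HAND2 and -0.33 for FOXC1, and FOXC2 was 0.038 on day 2 vs day 1. Without replicate 4 of days 2 and 3, MESP2 was -0.68 on day 2 vs day 1 and 0.79 on day 3 vs day 2, MSGN1 0.020 on day 3 vs day 2 and 0.18 on day 4 vs day 3, and FOXC2 1.38 on day 4 vs day 3. FOXC2 on day 2 vs day 1 was 0.029 with DESeq2 size factors, 0.021 without a filter and 0.066 with DESeq2. Leaving out 1 library gave these ranges: day 1 vs day 0, HAND2 -0.41 to 0.96; day 2 vs day 1, MESP2 -0.68 to 1.02 and FOXC2 -6.54 to 0.62; day 3 vs day 2, MSGN1 -0.78 to 0.43, MESP1 -1.09 to 2.87, MESP2 -0.91 to 0.91, HAND1 -0.68 to 0.88, HAND2 -0.57 to 4.75, FOXC1 -0.33 to 1.58 and FOXC2 -0.94 to 8.24; day 4 vs day 3, MSGN1 -0.68 to 0.19, HAND1 -1.23 to 0.018, HAND2 -3.82 to 1.78 and FOXC2 -1.79 to 1.38; day 4 vs day 1, FOXC2 -0.11 to 0.88. With a filter of CPM above 1 in 3 libraries, HAND2 and FOXC2 were not tested. Depth limits FOXC2 and, outside 2 libraries, HAND2.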
